A study of Mus musculus with 12 samples.

Results

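Pericentral Wnt target genes were followed through 12 mouse liver libraries. The 10 genes, Glul, Axin2, Lgr5, Tbx3, Rnf43, Znrf3, Oat, Slc1a2, Rhbg and Sp5, were taken by name from a table of 54532 genes. Each name matched 1 gene, and all 10 had enough counts to be tested in every comparison. The livers came from male PPARγ flox/flox mice injected at 8 weeks of age with an adeno-associated virus whose hepatocyte-specific TBG promoter drove either Cre recombinase (PPARγ-KO) or enhanced green fluorescent protein (wild-type). All mice, controls included, therefore carried the floxed alleles and a virus, and all were fed a fast-food diet (FFD) with fructose and glucose in the drinking water. The diet held 21% fat by weight (42% of its kcal), 0.2% cholesterol and 34% sucrose by weight, and no animals on another diet were used here. Each genotype had 3 libraries after 2 months and 3 after 5 months of diet, and nothing in the labels says that a library pools several animals or that 2 libraries share 1. The promoter drove Cre in hepatocytes, so the floxed alleles of the other liver cells were not targeted.

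In the liver lobule, Wnt ligands and R-spondins made by endothelial cells of the central vein bind Frizzled, LRP and LGR receptors on the nearest hepatocytes. β-Catenin then enters the nucleus and acts with TCF/LEF factors on genes whose mRNA is highest around the vein. Some of these genes feed back on the pathway. Axin2 is a scaffold of the complex that degrades β-catenin, Rnf43 and Znrf3 are membrane ubiquitin ligases that remove Frizzled receptors, and Lgr5 binds R-spondins and so restrains both ligases. Tbx3 and Sp5 are transcription factors. Others carry out pericentral metabolism: Glul is glutamine synthetase, Oat is ornithine aminotransferase, Slc1a2 is a glutamate transporter and Rhbg is an ammonium transporter.

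The libraries held 16367775 to 27452284 counts and 20072 to 21966 genes with a count. Albumin, the main plasma protein made by hepatocytes, stood at 33832 to 63489 CPM (normalized counts scaled to a common library size) in every library, and the 9 of 10 hepatocyte markers that matched by name together had 62145 to 92613 CPM. Pparg mRNA was not lower in the libraries labelled PPARγ-KO. It averaged 39.3 ± 1.92 CPM (SD, n = 3) in wild-type and 56.3 ± 8.84 in PPARγ-KO at 2 months, and 38.4 ± 2.54 and 84.8 ± 9.05 at 5 months. In edgeR's quasi-likelihood test this was a rise of 0.52 on the log2 scale at 2 months (adjusted p = 0.0309) and of 1.15 at 5 months (adjusted p = 2.57e-06). The rise at 2 months was lost when wild-type replicate 2 or 3 or any PPARγ-KO replicate was left out (adjusted p = 0.0574 to 0.117). Counts were deposited per gene and not per exon, so the loss of the floxed exons could not be read from them, and the directions given here are those between libraries as labelled. Wild-type replicate 1 at 2 months stood furthest from the other replicates of its group. CPM here are scaled by TMM over all 12 libraries, and a gene is called where its Benjamini-Hochberg adjusted p, over every gene that entered the test, was below 0.05.

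Per kilobase of annotated length, the metabolic members were the most abundant. Glul averaged 434 CPM per kb over the 12 libraries and Oat 300.2. Slc1a2 followed at 10.3, Rnf43 at 5.01 and Tbx3 at 4.78 CPM per kb. Rhbg, Znrf3, Axin2 and Sp5 lay close together at 2.01, 1.64, 1.61 and 1.52 CPM per kb, and Lgr5 was lowest at 0.73. Between neighbours in this order, the ranges over the 12 libraries were apart for Oat and Slc1a2 and overlapped for every other pair. Rhbg and Sp5 rested on the fewest reads, 41 to 116 and 30 to 131 counts per library, while Glul had 18606 to 38067. The loci of the members are given here in mm10. Glul lies on chr1:153899944-153909723 (+), Axin2 on chr11:108920349-108950783 (+), Lgr5 on chr10:115450311-115587780 (-), Tbx3 on chr5:119670669-119684724 (+) and Rnf43 on chr11:87662722-87735539 (+). Znrf3 lies on chr11:5276324-5444847 (-), Oat on chr7:132557478-132576398 (-), Slc1a2 on chr2:102658659-102790784 (+), Rhbg on chr3:88242874-88254709 (-) and Sp5 on chr2:70474923-70477729 (+). Oat lies within the annotated span of Fgfr2 on the same strand. Fgfr2 averaged 772 counts per library against 13508 for Oat. Tbx3 overlaps its antisense gene Tbx3os1, which averaged 82.8 counts against 611 for Tbx3, and since strand use in counting is not stated, reads of that pair cannot be told apart. Rhbg overlaps Gm38392 on the same strand over 11330 bases, and Gm38392 averaged 0.5 counts against 74.6 for Rhbg. How reads in such overlaps were assigned is not stated.

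Upstream sequence is shown for the 3 members that the comparisons turn on and for which a RefSeq transcript start was at hand, namely Sp5, with the lowest estimate at 2 months, and Slc1a2 and Glul, higher in PPARγ-KO at 5 months. Each line gives the 250 bases before the start in GRCm38.p6, 5′ to 3′ on the plus strand, from chr2:70474673-70474922 for Sp5, chr2:102706188-102706437 for Slc1a2 and chr1:153899679-153899928 for Glul. Capitals mark CTTTG, the core letters of a TCF/LEF motif, its longer form CTTTGAT, and AGGTCA, a nuclear receptor element, each on either strand.
Sp5: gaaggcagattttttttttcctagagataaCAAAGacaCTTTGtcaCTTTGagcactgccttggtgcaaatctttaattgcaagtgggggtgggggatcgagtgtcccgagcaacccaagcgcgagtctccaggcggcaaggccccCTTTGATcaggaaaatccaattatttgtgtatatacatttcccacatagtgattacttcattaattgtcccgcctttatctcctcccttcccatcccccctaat
Slc1a2: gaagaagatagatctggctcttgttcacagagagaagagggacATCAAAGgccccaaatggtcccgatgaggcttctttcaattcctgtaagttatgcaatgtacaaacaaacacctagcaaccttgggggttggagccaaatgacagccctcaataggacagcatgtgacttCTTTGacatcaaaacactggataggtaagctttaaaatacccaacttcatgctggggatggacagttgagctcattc
Glul: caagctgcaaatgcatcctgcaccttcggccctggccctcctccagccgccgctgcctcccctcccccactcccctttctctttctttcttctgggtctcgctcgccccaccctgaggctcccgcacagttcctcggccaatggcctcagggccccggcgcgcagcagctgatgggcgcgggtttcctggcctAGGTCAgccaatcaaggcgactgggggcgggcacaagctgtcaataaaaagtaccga
CTTTGAT (or ATCAAAG) was present 104 bases before the start of Sp5 and 207 bases before that of Slc1a2, and in 3.21% of 32851 upstream sequences of the same length. CTTTG (or CAAAG), which is contained in the longer motif, occurred 4 times before Sp5 and 2 times before Slc1a2 and is found in 48.6% of all sequences. AGGTCA (or TGACCT) occurred once before Glul and in 14.0% of all sequences. The RefSeq start used for Slc1a2 lies inside the span of the deposited gene model, so this window belongs to an internal start. Of the other members, Axin2, Oat and Rnf43 had sequences without any of these letters. A match of letters is a description of these windows and not a binding site.

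After 2 months of FFD, none of the 10 members was called between PPARγ-KO and wild-type, where edgeR called 3.56% of the 14573 genes tested. An unadjusted p below 0.05 with a 1.3-fold change was met by 1 member, Sp5, and by 11.0% of all genes, and DESeq2 called that gene alone. Estimates were above 0 for 3 members and below 0 for 7. Their median was -0.05 on the log2 scale against -0.005 for all genes, and the 2 genotypes overlapped for every member, whereas 12.1% of all genes were higher and 12.0% lower without overlap. Glul had 1505, 1533 and 1427 CPM in wild-type and 1522, 1519 and 1297 in PPARγ-KO, a difference of -0.04 ± 0.0949 (log2, SE). Glutamine synthetase mRNA was thus within the replicate spread at this time. Slc1a2 had 218, 141 and 158 CPM in wild-type and 153, 184 and 159 in PPARγ-KO (-0.06 ± 0.162).

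**Figure D1:**
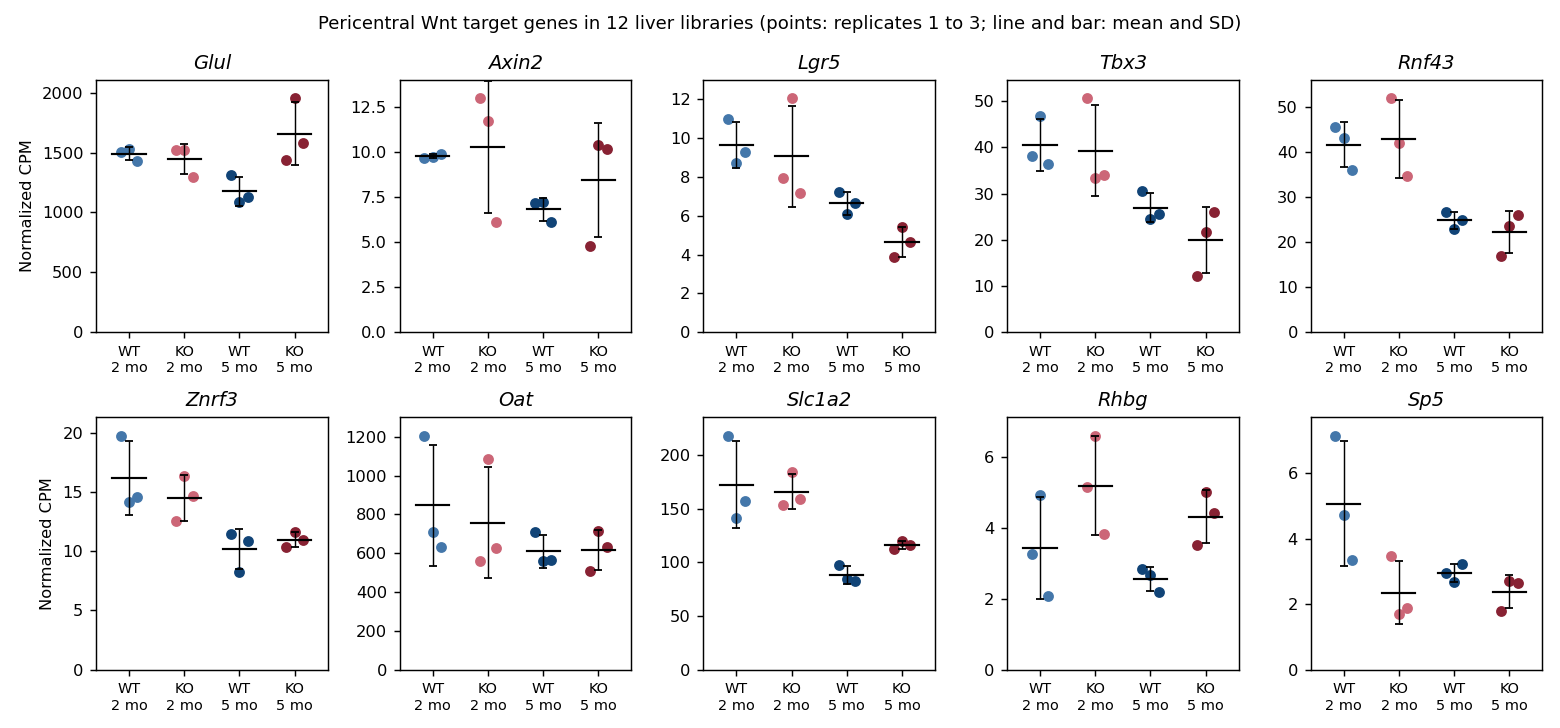
Normalized CPM (y axis, from 0, 1 scale per gene) of the 10 members in each library, by genotype and months of FFD (x axis), with points for replicates 1 to 3 and the mean and SD of each group. Glul, Slc1a2 and Rhbg were higher in all 3 PPARγ-KO than in all 3 wild-type libraries at 5 months, and PPARγ-KO replicate 1 at 5 months was the lowest of its group for all 10 members.

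Sp5 had the lowest estimate at 2 months. It had 7.15, 4.73 and 3.35 CPM in wild-type and 3.47, 1.71 and 1.90 in PPARγ-KO. Wild-type replicate 3 was just below PPARγ-KO replicate 1, so the groups overlapped. The difference was -1.11 ± 0.347 (log2, SE) with an adjusted p of 0.125 in edgeR. With the replicate number as a block, the difference was -1.10 and passed the test (adjusted p = 0.0198), and Sp5 was also called by DESeq2 (adjusted p = 0.0299), without the filter on low counts (3.32e-04) and in a fit of all 12 libraries (0.0325). These were the only 4 calls in 13 alternatives, over which the estimate ran from -1.48 to -0.78 and the adjusted p reached 0.316.

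The feedback members gave no call at 2 months either. Axin2 was within 9.71 to 9.89 CPM in the 3 wild-type libraries, whereas PPARγ-KO replicates had 13.0, 11.7 and 6.14 CPM, on both sides of wild-type (0.06 ± 0.253). Rnf43 ranged over 36.1 to 45.6 CPM in wild-type and 34.7 to 51.9 in PPARγ-KO, and Znrf3 over 14.2 to 19.7 and 12.5 to 16.4. Lgr5 ranged over 8.70 to 11.0 CPM in wild-type and 7.18 to 12.0 in PPARγ-KO. The spread of PPARγ-KO was thus wider than that of wild-type for Axin2, Rnf43 and Lgr5 and narrower for Znrf3, and the spread was not tested. Tbx3 had 36.5 to 46.8 and 33.3 to 50.6 CPM, and Oat 630 to 1205 and 563 to 1086. Wild-type replicate 1 held the highest Oat value of all 12 libraries. Rhbg had 3.27, 4.94 and 2.08 CPM in wild-type and 5.17, 6.61 and 3.83 in PPARγ-KO (0.59 ± 0.319, adjusted p = 0.367).

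After 5 months of FFD, 3 of the 10 members were higher in PPARγ-KO and none was called lower, where 8.90% of the 14138 genes tested were called higher and 9.51% lower. These were Glul, Slc1a2 and Rhbg, which carry glutamate and ammonium or join them into glutamine. They were also the members whose PPARγ-KO libraries all lay above wild-type (15.9% of all genes did). None of the feedback members or transcription factors was called. The median over the 10 members was 0.07 on the log2 scale against -0.006 for all genes, with 6 estimates above 0 and 4 below. An unadjusted p below 0.05 with a 1.3-fold change was met by 4 members, these 3 and Lgr5, which was lower, and by 17.0% of all genes.

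Glul had 1312, 1084 and 1131 CPM in wild-type and 1440, 1951 and 1580 in PPARγ-KO. The lowest PPARγ-KO library was above the highest wild-type library. The mean was 1176 ± 120 CPM (SD, n = 3) in wild-type and 1657 ± 264 in PPARγ-KO, a rise of 0.51 ± 0.113 on the log2 scale or 1.42-fold (edgeR, adjusted p = 0.00926). Slc1a2, which takes up glutamate, the substrate of glutamine synthetase, had 97.8, 84.9 and 82.4 CPM in wild-type and 113, 120 and 116 in PPARγ-KO. The replicates of PPARγ-KO were close to each other and apart from wild-type. Slc1a2 rose by 0.40 ± 0.0718 or 1.32-fold (adjusted p = 0.00172). Rhbg had 2.84, 2.68 and 2.19 CPM in wild-type and 3.54, 5.02 and 4.42 in PPARγ-KO, a rise of 0.76 ± 0.211 or 1.69-fold (adjusted p = 0.024). The Rhbg call was lost without wild-type replicate 2 or 3 or PPARγ-KO replicate 2 or 3 (adjusted p = 0.0651, 0.111, 0.0957 and 0.0732), and in the fit of all 12 libraries those of Rhbg and Slc1a2 were lost (0.101 and 0.08).

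**Figure D2:**
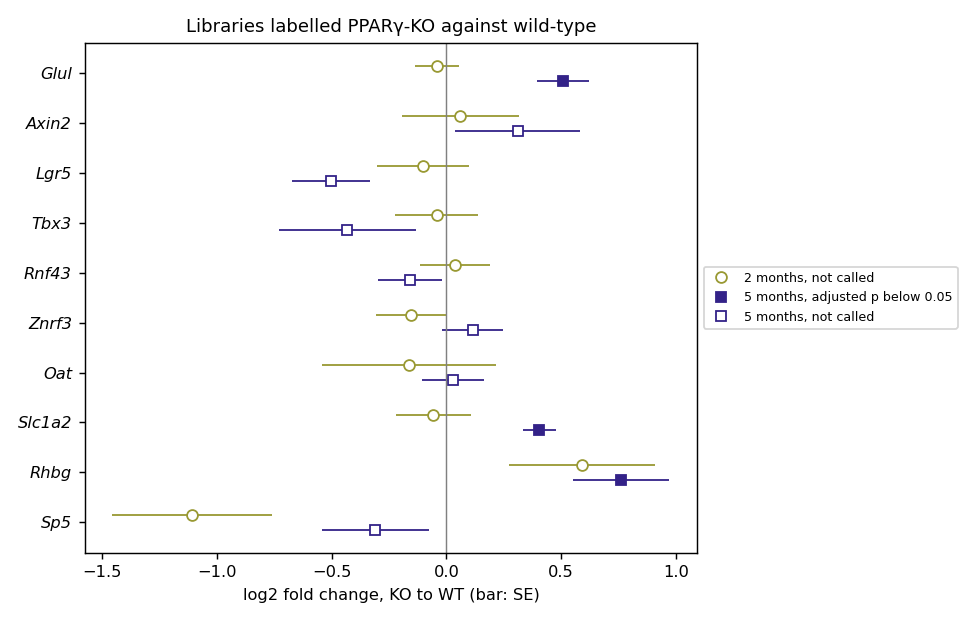
Log2 fold change of PPARγ-KO to wild-type (x axis, bar: SE of the fit) for each member (y axis) at 2 months (circles) and 5 months (squares), with 3 libraries per genotype and time. Filled symbols have an adjusted p below 0.05 and are Glul, Slc1a2 and Rhbg at 5 months, while the lowest point is Sp5 at 2 months, at -1.11.

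Lgr5 had 7.23, 6.06 and 6.63 CPM in wild-type and 3.87, 5.43 and 4.67 in PPARγ-KO at 5 months. It was the only member with every PPARγ-KO library below wild-type, as were 19.0% of all genes. The difference was -0.50 ± 0.17 with an adjusted p of 0.0573, and it was called without PPARγ-KO replicate 2 (-0.63, adjusted p = 0.0378), with library size alone (0.0342) and without the filter on low counts (0.0427). Axin2, a widely used readout of β-catenin activity, had 7.17, 7.23 and 6.11 CPM in wild-type and 4.81, 10.4 and 10.2 in PPARγ-KO. PPARγ-KO replicate 1 lay below wild-type and the other two above, and the difference was 0.31 ± 0.273 (adjusted p = 0.503). Without replicate 1 the difference was 0.61 and was called (adjusted p = 0.0143).

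Tbx3 had 30.6, 24.6 and 25.7 CPM in wild-type and 12.1, 21.7 and 26.1 in PPARγ-KO (-0.43 ± 0.299). Rnf43 had 26.7, 23.0 and 24.8 CPM and 17.0, 23.5 and 26.1 (-0.16 ± 0.141). In both genes PPARγ-KO replicate 1 was below every other library of the series. Znrf3 had 8.28 to 11.4 CPM in wild-type and 10.3 to 11.6 in PPARγ-KO (0.11 ± 0.133), Oat 560 to 707 and 509 to 713 (0.03 ± 0.134), and Sp5 2.68 to 3.24 and 1.79 to 2.72 (-0.31 ± 0.232). For these 5 genes the genotypes overlapped.

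Some ratios between members show the unequal changes at 5 months within each library. The ratio of Glul to Tbx3 CPM was 119, 90.0 and 60.5 in the PPARγ-KO libraries at 5 months, and 30.1 to 45.6 in the other 9 libraries. The ratio of Rhbg to Lgr5 CPM was 0.915, 0.925 and 0.946 in those PPARγ-KO libraries and 0.224 to 0.654 in the others. The ratios of Glul to Axin2, to Slc1a2 and to Oat were also taken, and for each the PPARγ-KO libraries at 5 months overlapped the others. The pairs given with values were chosen after those values were seen and are given without a test.

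Members also varied from library to library within a group. With the group means taken out, Tbx3 and Rnf43 were the pair that varied most alike (Pearson r = 0.879 in log2 CPM over 12 libraries), followed by Lgr5 and Oat (0.876), Oat and Slc1a2 (0.861) and Axin2 and Rnf43 (0.828). The lowest value was that of Tbx3 and Slc1a2 (-0.112). These are descriptions over libraries that share normalization. At 5 months, PPARγ-KO replicate 1 was lowest of its group for all 10 members and replicate 2 highest for 8, and among wild-type libraries replicate 1 was highest for 8.

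Whether the effect of genotype differed between the times was tested in a fit of all 12 libraries. No member was called, where 1.57% of 15127 genes were, and 2 members had an unadjusted p below 0.05 with a 1.3-fold change, as did 10.3% of all genes. These were Glul, whose log2 fold change was higher at 5 than at 2 months by 0.54 ± 0.155 (adjusted p = 0.0963), and Slc1a2, by 0.45 ± 0.191 (adjusted p = 0.292). DESeq2 called Glul. For Sp5 the change was 0.79 ± 0.433 (adjusted p = 0.422), from a lower estimate at 2 months.

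Between 2 and 5 months of FFD, the members fell in wild-type liver. Estimates were below 0 for all 10, and 8 were called lower, where 22.7% of the 14491 genes tested were called lower and 23.8% higher. The exceptions were Oat and Rhbg. The same 8 members had every library at 5 months below every library at 2 months, as did 28.0% of all genes. The median over the 10 members was -0.56 on the log2 scale against -0.013 for all genes. Mice at 5 months were also older, and no source used here says that the libraries of both times were made together, so diet, age and library preparation cannot be told apart.

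The largest fall was that of Slc1a2, from 172 ± 40.3 to 88.4 ± 8.28 CPM (SD, n = 3), which was -0.96 ± 0.161 on the log2 scale (adjusted p = 0.00185). Rnf43 fell from 41.6 ± 4.96 to 24.9 ± 1.85 CPM (-0.74 ± 0.104, adjusted p = 2.21e-04) and Znrf3 from 16.2 ± 3.12 to 10.2 ± 1.69 CPM (-0.66 ± 0.166, adjusted p = 0.00812). Both ligases that clear Frizzled receptors were therefore lower together. Tbx3 changed by -0.59, Lgr5 by -0.54, Axin2 by -0.52 and Glul by -0.34, and Sp5 by -0.77 (adjusted p = 0.00191 to 0.038). In wild-type the calls of Slc1a2, Rnf43 and Znrf3 were kept under every alternative. The count of 8 went down to 5 without wild-type replicate 2 at 5 months (Glul, Lgr5 and Sp5 lost) or replicate 3 (Glul, Axin2 and Sp5 lost). Glul and Sp5 were also lost without wild-type replicate 2 at 2 months, and Sp5 without replicate 1 of either time. In the fit of all 12 libraries the calls of Axin2 (adjusted p = 0.182) and Tbx3 (0.099) were lost.

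In PPARγ-KO liver, 4 members fell between 2 and 5 months and none rose, where 22.2% of the 14478 genes tested were called lower and 22.7% higher. Lgr5 fell from 9.04 ± 2.61 to 4.66 ± 0.782 CPM (-0.95 ± 0.216, adjusted p = 0.00473) and Rnf43 from 42.8 ± 8.62 to 22.2 ± 4.70 CPM (-0.95 ± 0.213, adjusted p = 0.0141). Slc1a2 fell from 166 ± 16.4 to 116 ± 3.53 CPM (-0.51 ± 0.0731, adjusted p = 2.07e-04) and Znrf3 changed by -0.40 ± 0.119 (adjusted p = 0.0165, lost without PPARγ-KO replicate 2 of 2 months or replicate 1 of 5 months, at 0.0656 and 0.0679). Slc1a2 and the feedback members Lgr5, Rnf43 and Znrf3 were therefore lower at 5 months in both genotypes. Tbx3 also had no overlap between the times, with 33.3 to 50.6 and 12.1 to 26.1 CPM (27.5% of all genes were lower without overlap), but missed the threshold (-0.99 ± 0.349, adjusted p = 0.079), which it passed with DESeq2 (0.0252) and in the fit of all 12 libraries (0.0171).

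Glul was not lower at 5 months in PPARγ-KO. It had 1297 to 1522 CPM at 2 months and 1440 to 1951 at 5 months, a difference of 0.19 ± 0.116 (adjusted p = 0.205), which was called higher without the filter on low counts (0.0138). In wild-type it fell, and the genotypes' difference in this change is the one tested above, which missed the threshold (adjusted p = 0.0963). Sp5 stood at 2.36 ± 0.965 CPM at 2 months and 2.39 ± 0.515 at 5 months (0.01 ± 0.304). Axin2 (-0.28 ± 0.423), Oat (-0.30 ± 0.316) and Rhbg (-0.26 ± 0.224) were not called. The comparisons of genotypes and those of times share libraries, so they are not independent of each other.

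**Figure D3:**
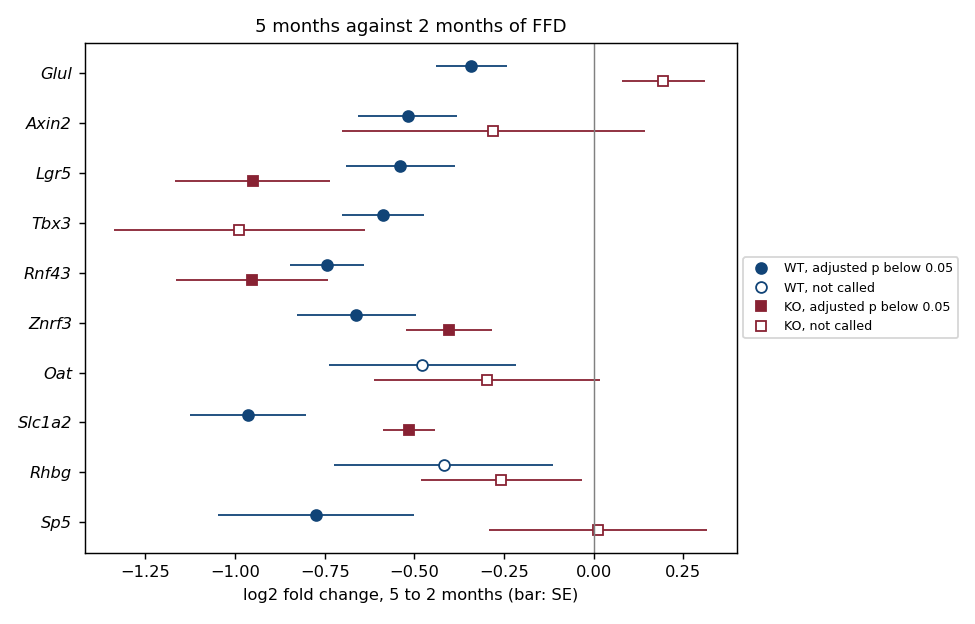
Log2 fold change from 2 to 5 months of FFD (x axis, bar: SE of the fit) of each member (y axis) in wild-type (circles) and PPARγ-KO (squares), 3 libraries per group. Filled symbols have an adjusted p below 0.05 and number 8 in wild-type and 4 in PPARγ-KO, all below 0, while Glul in PPARγ-KO lies at 0.19.

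The rest of the pathway was read from lists of its parts. Of 7 Wnt and R-spondin ligands, 5 were tested at 2 months and 6 at 5 months, and none was called between genotypes. Rspo3, an R-spondin of central vein endothelium, had 7.58 CPM in wild-type and 8.06 in PPARγ-KO at 2 months and 6.24 and 6.09 at 5 months. Wnt2 and Wnt9b, the Wnt ligands of liver endothelium, differed by 0.09 ± 0.184 and -0.39 ± 0.306 at 2 months and by -0.20 ± 0.28 and 0.88 ± 0.517 at 5 months, with Wnt9b below 2 CPM in each group mean. Wnt4 (-0.23 and -0.08 at 2 and 5 months), Wnt5a (-0.71 and -0.22) and Rspo1 (-0.26 at 5 months, where alone it was tested) were not called either. Over time, Wnt2 fell in wild-type (-0.76 ± 0.228, adjusted p = 0.0191) and in PPARγ-KO (-1.06 ± 0.237, adjusted p = 0.00395), and Wnt9b fell in wild-type (-1.85 ± 0.378, adjusted p = 0.00236). The Wnt2 call in wild-type was lost without replicate 3 of 2 months (0.074) or replicate 2 of 5 months (0.0878).

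Of 10 receptors, 1 was lower in PPARγ-KO at 2 months and 3 were higher at 5 months. Fzd4, a Frizzled also found on endothelium, fell from 76.5 ± 11.8 CPM in wild-type to 46.5 ± 5.04 at 2 months (-0.72, adjusted p = 0.0195), and had 36.7 ± 4.45 and 41.4 ± 3.73 CPM at 5 months. Its call at 2 months was lost without wild-type replicate 2 or PPARγ-KO replicate 2 or 3 (adjusted p = 0.0824, 0.0686 and 0.0794). Lgr4, the R-spondin receptor that is widely expressed in hepatocytes, rose from 40.9 ± 5.81 to 57.9 ± 1.47 CPM at 5 months (0.51 ± 0.0877, adjusted p = 0.00134), while the estimate of its relative Lgr5 had the opposite sign. With the replicate block Lgr4 was also called at 2 months (0.49, adjusted p = 0.0102). The Frizzled Fzd5 rose by 0.56 (adjusted p = 0.0179) and the co-receptor Lrp5 by 0.30 (adjusted p = 0.0189). Lrp6 differed by 0.04 and was not called. The Fzd5 call was lost without wild-type replicate 2 (0.0896) or PPARγ-KO replicate 2 (0.0789), and that of Lrp5 without replicate 2 or 3 of either genotype (0.0685 to 0.0999).

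Of 18 transducers tested, none was called at 2 months and 2 at 5 months. These 2 were 1 rise and 1 fall, which is no excess over all genes. The later genotype comparison called 8.90% of those as rising and 9.51% as falling. Dvl1, which relays the signal from Frizzled, rose by 0.23 (adjusted p = 0.0242), and Wls, which carries Wnt proteins to the cell surface, fell by 0.50 (adjusted p = 0.0141). Both calls were lost without wild-type replicate 2 or 3 or PPARγ-KO replicate 1, and that of Dvl1 also without PPARγ-KO replicate 2 (adjusted p = 0.0514 to 0.0863 for Dvl1 and 0.0567 to 0.0795 for Wls). Ctnnb1, the mRNA of β-catenin itself, had 231 and 232 CPM in wild-type and PPARγ-KO at 5 months (0.02 ± 0.0612). From 2 to 5 months, 10 transducers fell and 1 rose in wild-type, where 22.7% of all genes tested were called lower and 23.8% higher. In PPARγ-KO 4 fell and 1 rose, where these shares were 22.2% and 22.7%, so the falls there were near the share of all genes. Of 14 inhibitors, 6 could be tested. Notum, a secreted enzyme that inactivates Wnt proteins, rose at both times, from 13.8 ± 1.17 to 21.2 ± 3.88 CPM at 2 months (0.62, adjusted p = 0.0443) and from 13.6 ± 0.696 to 18.7 ± 2.34 at 5 months (0.47, adjusted p = 0.0105). Tle3, a co-repressor that binds TCF/LEF factors, fell by 0.36 at 5 months (adjusted p = 0.00404). The Notum call at 2 months was lost without wild-type replicate 2 or 3 or PPARγ-KO replicate 1 or 2 (adjusted p = 0.135 to 0.193), and those of Notum and Tle3 at 5 months were kept under every alternative.

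Other pericentral genes were compared with the members. Of 19 such genes, 2 rose and none fell at 2 months (3 rose with the replicate block, which added Ahr at 0.34, adjusted p = 0.044), and 10 rose and none fell at 5 months, with medians of 0.28 and 0.46 on the log2 scale. Cyp1a2 had 185 ± 35.1 CPM in wild-type and 387 ± 23.6 in PPARγ-KO at 2 months (1.06, adjusted p = 0.00549) and 158 ± 16.6 and 374 ± 49.5 at 5 months (1.26, adjusted p = 2.13e-05). Cyp2c29 rose by 1.41 at 2 months (adjusted p = 0.0237) and by 1.12 at 5 months (adjusted p = 8.12e-06). Both encode cytochromes P450 that oxidize drugs and other small molecules. Cyp2a5, another of these enzymes, rose 4.19-fold at 5 months, from 301 ± 20.3 to 1249 ± 496 CPM (2.07 ± 0.37, adjusted p = 0.0262). The call of Cyp2a5 was lost when any library but PPARγ-KO replicate 1 was left out (0.0574 to 0.114) and that of Cyp2c29 at 2 months without replicate 2 or 3 of wild-type or 1 or 2 of PPARγ-KO (0.0548 to 0.0819), while Cyp1a2 was called throughout. Cyp2e1, the most abundant gene of the list and the P450 that oxidizes ethanol, had 4485 and 3896 CPM at 5 months (-0.19 ± 0.0999, adjusted p = 0.219), and Aldh1a1, a retinaldehyde dehydrogenase, rose by 0.42 (adjusted p = 0.0033).

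**Figure D4:**
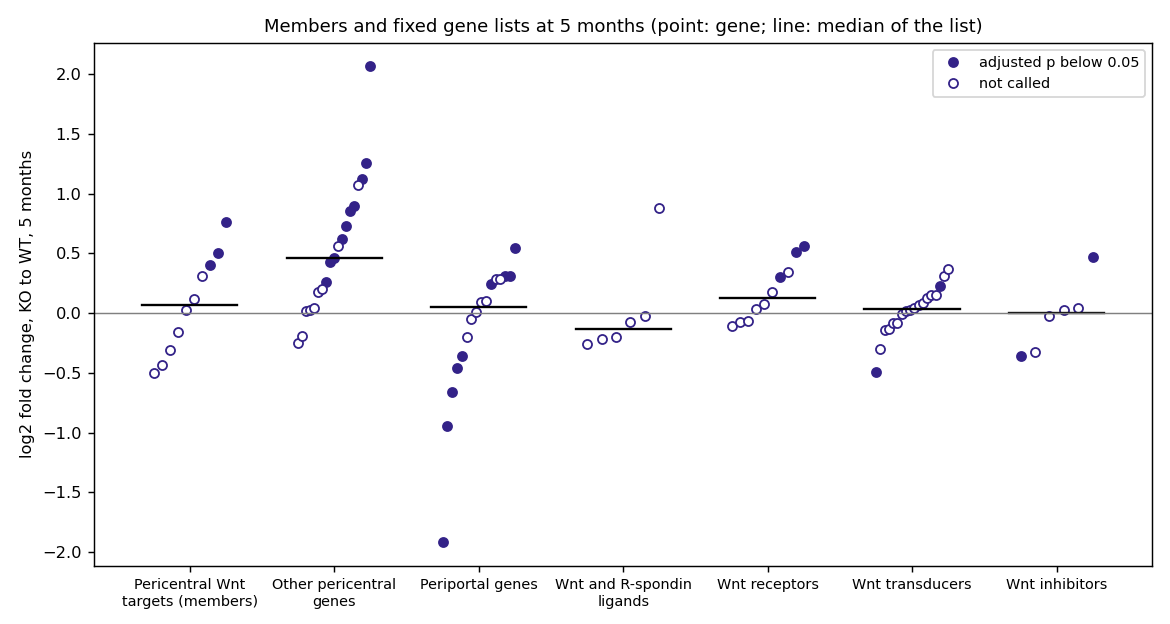
Log2 fold change of PPARγ-KO to wild-type at 5 months (y axis) of each tested gene in the member set and 6 lists (x axis), with filled points for an adjusted p below 0.05 and a line at the median of each list. Of the other pericentral genes 10 of 19 were called, all higher, against 3 of 10 members, and the medians were 0.46 and 0.07. Of all genes tested, 8.90% were called higher.

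Genes of the opposite, periportal end of the lobule were split. None of 16 was called at 2 months, and at 5 months 4 rose and 5 fell, with a median of 0.05. The shares of all genes called at 5 months were 8.90% higher and 9.51% lower. The largest falls were those of Hsd17b6 (-1.92 ± 0.165), a hydroxysteroid dehydrogenase, Ctsc (-0.94 ± 0.0634), a lysosomal protease also found in immune cells, and G6pc (-0.66 ± 0.073), the last enzyme of glucose release. Cps1, the first enzyme of the urea cycle, had 1859 and 2252 CPM (0.29 ± 0.112, adjusted p = 0.0992).

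Markers of liver cell types moved with the groups, and in bulk tissue fewer cells of a type cannot be told apart from less RNA per cell. At 2 months, the summed CPM of the 9 hepatocyte markers was 62145 to 71875 in wild-type and 78082 to 89794 in PPARγ-KO, with 1 marker called higher and 1 lower. With the replicate block 2 were higher and none lower, since Tat was gained (1.05, adjusted p = 0.00243) and Cyp3a11 lost (0.0523). Most of the hepatocyte sum was albumin, with 41672 to 48874 CPM in wild-type and 53650 to 63489 in PPARγ-KO. Of the 9 estimates 8 were above 0. The 10 endothelial markers summed to 426 to 532 and 440.4 to 485 CPM and none was called, or 1 with the block (Lyve1, -0.49, adjusted p = 0.0419). The 10 stellate cell markers summed to 623 to 793 CPM in wild-type and 480 to 505 in PPARγ-KO without overlap, with 1 called lower, and 3 with the block, which added Pdgfrb (-0.50, adjusted p = 0.031) and Col3a1 (-1.13, adjusted p = 0.0225). The 8 cholangiocyte markers summed to 119 to 199 and 86.0 to 108 CPM, also without overlap, and none was called, or 1 with the block (Spp1, -0.88, adjusted p = 0.00514). Spp1 made up most of these sums, with 88.9 to 170 CPM in wild-type and 56.6 to 74.3 in PPARγ-KO. Of the 8 estimates 5 were above 0 and 3 below. Of the 10 macrophage markers 1 was higher and 2 lower, and of 4 lymphocyte markers none was called. Ahr, Lyve1, Pdgfrb and Spp1 are named because the block changed their call. At 5 months, the summed CPM of 9 hepatocyte markers was 63901 to 69540 in wild-type and 79515 to 92613 in PPARγ-KO, with 3 markers called higher and 1 lower. Albumin alone had 33832 to 38586 CPM in wild-type and 52162 to 62609 in PPARγ-KO. Of the 9 estimates 5 were above 0 and 4 below. The summed CPM of 10 endothelial markers was 330.1 to 356 and 299 to 317, with 4 called lower, and that of 10 macrophage markers 828 to 969 and 474 to 557, with 9 called lower. The 10 stellate cell markers summed to 736 to 867 and 576 to 637 CPM, with 4 called lower. Of 7 cholangiocyte markers 1 was higher, and of 7 lymphocyte markers 2 were lower. No marker of these lists was at 0 counts throughout a group. From 2 to 5 months the endothelial sums were lower without overlap in both genotypes, with 7 and 8 of 10 markers called lower and 1 higher in each. The macrophage sum rose in wild-type from 353 to 444 CPM at 2 months to 828 to 969 at 5 months, with 9 of 10 markers called higher, and in PPARγ-KO it went from 401 to 451 CPM to 474 to 557, with 5 called higher and 2 lower. Lymphocyte markers had 4 of 8 called higher in wild-type, and 1 of 4 lower in PPARγ-KO. The cholangiocyte sum in PPARγ-KO was 86.0 to 108 CPM at 2 months and 224 to 267 at 5 months, with 1 of 8 markers called higher and 1 lower, and in wild-type no marker was called. Most of the PPARγ-KO sum was again Spp1, with means of 67.7 and 208 CPM. Stellate cell markers had 2 higher and 1 lower in wild-type and 4 higher and 1 lower in PPARγ-KO, and hepatocyte markers 3 higher in wild-type and 2 higher and 1 lower in PPARγ-KO. The part of these shifts in the differences of the members was not tested.

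Apart from the members, the genes most like Glul over the 12 libraries, among 13171 genes with a mean of at least 1 CPM, were Ttc13 (Pearson r = 0.916 in log2 CPM), Cyp2a5 (0.898) and Usp5 (0.883). Those most like Axin2 were Rffl (0.862), Lins1 (0.851) and Ski (0.85). These are the highest values of each search, and they include the differences between groups. Cyp2a5 is also on the list of other pericentral genes. Its genotype difference changed by 1.74 ± 0.431 between the times and was not called (edgeR, adjusted p = 0.0963).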

How the data were processed

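Total liver RNA was sequenced by a company on an Illumina NovaSeq, giving 12 libraries. The authors deposited counts of reads per gene for 54532 genes in each library, not normalized, on mm10. The study's methods name STAR as aligner and the submitters' processing notes name HISAT2. The counting program, annotation release and strand use are not given in the sources used here.

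Groups were taken from the sample labels. From these counts, each pair of groups was compared on its own 6 libraries, and the difference between times on all 12, with edgeR 4.0.16 in R 4.3.3 (filterByExpr, TMM, robust quasi-likelihood F-test, two-sided, Benjamini-Hochberg, threshold 0.05), after a trial on simulated counts. Errors of log2 fold changes are standard errors of the fit. Library totals were 16367775 to 27452284 counts. Nothing says that replicates were separate animals, so p-values measure the spread between these libraries.

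Alternatives were DESeq2 1.42.0, edgeR with DESeq2's size factors, with no scaling beyond library size, unfiltered or with a minimum of 10 counts per library, a replicate block, all 12 libraries in one fit, an unadjusted p below 0.05 with a 1.3-fold change, and each library left out. Replicate numbers were checked on 5000 genes. At 2 months same-numbered libraries of both genotypes deviated together (r = 0.218, 0.323 and 0.14), so blocked values are given where they change a call, and no label states where the pairing comes from.

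The members and gene lists were chosen with earlier results of these data known. Named are all members, Pparg, all tested ligands, and of each list the genes called between genotypes (the 3 largest where more than 5 were called) and the 2 most abundant, for marker lists as counts and sums. Upstream sequences are RefSeq's (GRCm38.p6), found for 6 members. Sequences of Lgr5, Tbx3, Znrf3 and Rhbg were not used here.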

Additional observations from a re-analysis of the deposited data

Results flagged for a closer look

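No member was set apart by the test of the difference between 5 and 2 months, and groups of 3 are too small to test for an outlying library. Pparg itself, the targeted gene, was higher in PPARγ-KO by 0.62 ± 0.145 more at 5 than at 2 months (log2, edgeR, adjusted p = 0.0432). That call was kept without wild-type replicate 1 or PPARγ-KO replicate 2 of 2 months or PPARγ-KO replicate 3 of 5 months, and lost without each of the other libraries (adjusted p = 0.0651 to 0.122). Of the listed genes named by the rule, 8 had a PPARγ-KO to wild-type log2 fold change that differed between the times in edgeR's fit of all 12 libraries. Of all genes, 1.57% were called in this fit. Most named genes were picked for a call between genotypes in these same libraries, so the count of 8 cannot be set against that share. Among these 8, the receptor Fzd4 was the only gene of the Wnt pathway lists. The change of Fzd4 was 0.89 ± 0.173 higher at 5 months (adjusted p = 0.0221). It was lost without wild-type replicate 2 or PPARγ-KO replicate 3 of 2 months, or wild-type replicate 3 or PPARγ-KO replicate 2 or 3 of 5 months (0.0542 to 0.0662). Among periportal genes, Hsd17b6 changed by -1.96 ± 0.285 (adjusted p = 0.0125) and Ctsc by -0.98 ± 0.13 (adjusted p = 0.0027). The hepatocyte marker Serpina1c changed by -1.20 ± 0.239 (adjusted p = 0.0345), and its counts are uncertain because its close paralogs can share reads. The Serpina1c call was lost without any PPARγ-KO replicate of 2 months, any wild-type replicate of 5 months, or PPARγ-KO replicate 2 or 3 of 5 months (0.0502 to 0.0926). The sinusoidal endothelial marker Clec4g changed by -0.77 ± 0.13 (adjusted p = 0.0086). Of the macrophage markers, Clec4f changed by -1.10 ± 0.126 (adjusted p = 9.88e-04), Timd4 by -2.27 ± 0.409 (adjusted p = 0.0167) and Vsig4 by -1.19 ± 0.166 (adjusted p = 0.00456). That of Timd4 was lost without wild-type replicate 2 or 3 of 5 months (0.0548 and 0.0594).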

How the results depend on the processing

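Of the members' log2 fold changes recomputed under the alternatives, 632 kept their direction and side of the threshold, 21 lost the call, 15 gained it and 32 changed sign. Between genotypes at 2 months, 0 members were called, and 1 (Sp5) with DESeq2, without the filter, with the replicate block, with all 12 libraries in one fit and by an unadjusted p below 0.05 with a 1.3-fold change. At 5 months 3 were called, 4 (with Lgr5, lower) with library size alone, without the filter and by the unadjusted rule, and 1 (Glul) with all 12 libraries in one fit. For the difference between the times 0 were called, and 1 (Glul) with DESeq2, 2 (Glul and Slc1a2) without the filter and 2 by the unadjusted rule. With a library left out in turn, 0 to 0, 2 to 4, and 0 to 0 members were called in these comparisons, 5 to 8 over time in wild-type and 3 to 4 over time in PPARγ-KO. Glul at 5 months kept its call under all alternatives. Of 103 calls of Pparg and the listed genes named by the rule, 62 were kept under every alternative and 37 were lost when some library was left out.

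Over all genes, 519 were called at 2 months, and 988 with DESeq2, 1562 without the filter, 817 with the replicate block, 1153 with all 12 libraries in one fit and 1608 by the unadjusted rule. For the difference between the times, 238 were called, and 594 with DESeq2, 793 without the filter and 1563 by the unadjusted rule. Leaving out a library gave 117 to 1577 at 2 months, 1593 to 3078 at 5 months (2602 with all) and 83 to 567 for the difference. The replicate block gave Oat a call over time in wild-type (adjusted p = 0.0183) and removed that of Rnf43 in PPARγ-KO (0.0515). Between genotypes at 5 months the numbers did not pair the libraries (r = -0.0806, -0.0586 and -0.172). Over time, same-numbered libraries had r = 0.239, 0.186 and 0.0198 in wild-type and -0.0394, 0.216 and -0.0216 in PPARγ-KO. A pair of differently numbered wild-type libraries had 0.266.

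No value that changed sign was called. With library size alone, Axin2 and Rnf43 at 2 months were -0.01 and -0.04, Oat at 5 months -0.04 and Sp5 over time in PPARγ-KO -0.05. With a library left out, estimates at 2 months ran from -0.08 to 0.03 for Glul, -0.14 to 0.34 for Axin2, -0.36 to 0.05 for Lgr5, -0.26 to 0.07 for Tbx3, -0.12 to 0.18 for Rnf43, -0.25 to 0.02 for Znrf3, -0.51 to 0.18 for Oat and -0.18 to 0.15 for Slc1a2. At 5 months they ran from -0.29 to 0.01 for Rnf43, -0.01 to 0.20 for Znrf3 and -0.09 to 0.15 for Oat. Over time in PPARγ-KO they ran from -0.56 to 0.02 for Axin2, -0.47 to 0.05 for Oat and -0.16 to 0.39 for Sp5, and for the difference between the times from -0.04 to 0.53 for Axin2, -0.16 to 0.54 for Oat and -0.20 to 0.42 for Rhbg. The cause of these changes was not tested.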
